A study of Mus musculus with 12 samples.

Results

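Periocular skin carried transcripts of all 10 genes examined here, which belong to the circadian clock. Of these genes, 4 (40%) differed between ft/ft and ft/ftMyD88-/- mice, against 23.3% of all genes tested. The groups also differed in sex by their transcripts and in visible inflammation, which cannot be told apart from genotype. The 10 genes were taken by symbol from the first column of the count table, which lists 21247 genes: *Arntl*, *Clock*, *Npas2*, *Per1*, *Per2*, *Per3*, *Cry1*, *Cry2*, *Nr1d1* and *Dbp*. *Cry1* and *Per2* were higher in ft/ftMyD88-/- skin, at 1.52-fold and 1.74-fold the mean of ft/ft skin. *Cry2* and *Nr1d1* were lower, at 0.64 and 0.536 of the ft/ft mean. The other 6 did not pass the test, and their estimates and intervals are given below.

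The RNA-seq held 4 libraries of each group, from mice on a BALB/c background that the methods give as 6 weeks old and the study as female. ft/ft mice carry a spontaneous loss-of-function point mutation of filaggrin, an epidermal barrier protein, in a line without the matted (ma) mutation of *Tmem79*. ft/ftMyD88-/- mice carry the same filaggrin mutation and also lack MyD88, the adaptor of toll-like and IL-1 family receptors, through a global knockout. No treatment is named for either group, all mice shared the same pathogen-free housing, and 4 WT samples were not analysed here. Whole biopsies were sequenced, so fewer cells of a type and less RNA per cell cannot be told apart. The time of day of collection is not given in the sources used here.

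The clock is a feedback loop that runs in nearly every cell, keratinocytes, fibroblasts and muscle fibres included. ARNTL (BMAL1) pairs with CLOCK or NPAS2 and switches on the *Per* and *Cry* genes through E-box sequences, and PER and CRY proteins then return to the nucleus and silence that pair. NR1D1 (REV-ERBalpha) represses *Arntl* while ROR receptors activate it, and DBP carries the rhythm to output genes through D-box sequences. In skin the loop is known for timing keratinocyte division and immune responses over the day. In most tissues *Arntl* and *Npas2* peak at about the opposite time of day to *Dbp*, *Nr1d1* and the *Per* genes.

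Total counts ranged from 15802957 to 29255129 per library, and values are CPM, each count scaled to a common library total after edgeR's TMM normalization, unless stated otherwise. A gene was called different at an edgeR quasi-likelihood adjusted p (Benjamini-Hochberg over 20454 genes) under 0.05. *Myd88* itself was at 32.1, 36.5, 28.7 and 25.4 CPM in ft/ft replicates 1 to 4 and 38.8, 48.8, 32.2 and 44.9 in ft/ftMyD88-/- replicates 1 to 4, so the count did not fall in the libraries labelled as deficient (log2 fold change 0.42, SE, the standard error, 0.142, edgeR adjusted p = 0.0484). *Tmem79* averaged 59.2 ± 2.92 CPM in the ft/ft and 16.4 ± 2.10 in the ft/ftMyD88-/- libraries (SD, n = 4 each). Summed over the ft/ft libraries *Xist* had 1 count, against 34.6 to 66.8 CPM in each ft/ftMyD88-/- library, while Y-linked *Ddx3y* was at 54.2 to 73.2 CPM in ft/ft and at most 0.482 CPM in ft/ftMyD88-/-. The ft/ft libraries therefore carried male and the ft/ftMyD88-/- libraries female transcripts, whereas the study describes females, so every difference given here is one of genotype and sex together, which cannot be told apart. P-values weigh a group difference against the spread between these libraries and do not separate genotype from sex or inflammation. Of the keratinocyte markers, *Krt5*, *Krt14*, *Krt1* and *Krt10* summed to 16677 CPM or more in every library, so the label of skin matched its markers. Their sums were 19930 to 26404 CPM in ft/ft and 16677 to 20939 in ft/ftMyD88-/-, and 2 of the 4 were called lower, *Krt5* (log2 fold change -0.67, edgeR adjusted p = 0.0014) and *Krt10* (-0.58, edgeR adjusted p = 0.0045).

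Skeletal muscle markers also moved with the groups. Over 8 genes (*Acta1*, *Ckm*, *Mylpf*, *Tnnt3*, *Myh4*, *Myh1*, *Atp2a1*, *Tnni2*) they summed to 10068 to 13638 CPM in ft/ft and 3838 to 7335 in ft/ftMyD88-/-, and 7 of the 8 were called lower. Anagen hair follicle markers summed to 1180 to 1906 CPM in ft/ft and to 10008, 1579, 2448 and 5942 in ft/ftMyD88-/- replicates 1 to 4, with 1 of 6 called higher (*Msx2*). All 5 proliferation markers were called higher, with sums of 129 to 203 CPM against 246 to 311. Neutrophil markers summed to 36.1, 250, 29.5 and 21.5 CPM in ft/ft replicates 1 to 4 against 399 to 958, with 1 of 4 called (*Csf3r*). In ft/ftMyD88-/- *S100a8* and *S100a9* led that sum, with means of 242 and 368 CPM. They did not pass (edgeR adjusted p = 0.126 and 0.123), although their groups did not overlap. *Cxcr2* averaged 16.0 and 19.4 CPM with overlap (edgeR adjusted p = 0.383). The ft/ft library with the highest neutrophil sum, replicate 2, was also the highest of its group for *Arntl*, *Clock* and *Npas2*. Adipocyte markers overlapped, at 217 to 506 against 177 to 482 CPM, and the part of any of these lists in the clock values below was not tested.

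Promoter sequence is shown for *Cry1*, *Cry2* and *Nr1d1*, which are the called clock genes with an entry in the RefSeq-derived table (GRCm38.p6). The table held an entry for 9 of the 10 genes, all but *Per2*. Each stretch runs 5′ to 3′ on the gene's strand and ends just before the outermost annotated base of the gene, and capitals mark E-box letters (CACGTG) or the related E′-box letters (CACGTT, which read AACGTG on the other strand).

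Cry1, minus strand, chr10:85185055-85185304: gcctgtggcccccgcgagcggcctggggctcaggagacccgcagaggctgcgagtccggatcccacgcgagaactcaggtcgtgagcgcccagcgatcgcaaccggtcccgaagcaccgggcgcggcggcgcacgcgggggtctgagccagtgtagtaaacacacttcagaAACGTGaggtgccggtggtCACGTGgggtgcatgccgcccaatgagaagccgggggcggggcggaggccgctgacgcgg

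Cry2, minus strand, chr2:92434086-92434319: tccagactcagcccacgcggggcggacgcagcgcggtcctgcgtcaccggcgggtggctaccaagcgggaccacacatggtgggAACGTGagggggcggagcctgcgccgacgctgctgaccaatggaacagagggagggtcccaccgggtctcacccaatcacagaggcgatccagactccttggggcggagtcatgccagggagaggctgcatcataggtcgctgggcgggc

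Nr1d1, minus strand, chr11:98775378-98775627: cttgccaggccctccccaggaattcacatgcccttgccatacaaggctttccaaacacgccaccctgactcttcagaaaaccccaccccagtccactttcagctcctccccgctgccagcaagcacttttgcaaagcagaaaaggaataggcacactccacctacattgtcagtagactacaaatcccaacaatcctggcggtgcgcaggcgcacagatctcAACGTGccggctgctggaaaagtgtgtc

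*Cry1*, which was higher in ft/ftMyD88-/-, holds an E-box that begins 60 bases before the start site and an E′-box that begins 79 bases before it. *Cry2* and *Nr1d1*, which were lower, each hold a single E′-box, 166 and 28 bases before the start site. In windows of 250 bases before to 50 after a start site, searched on both strands, 7.15% of all 32851 promoters held the E-box letters and 4.68% the E′-box letters. The 2 motifs share all letters but the last. The D-box letters TTATGTAA, in 0.938% of promoters, were found 2 times before *Per3*. The RORE core letters TAGGTCA, in 2.61%, were found just after 1 of the 2 *Arntl* start sites. The CRE letters TGACGTCA, in 1.79%, were found at no start site of the 9 genes. E-box letters also stood before *Per1*, which was not called, and before *Tef* and *Bhlhe41*, 2 further loop genes that were called lower. These are matches of letters and not sites of binding.

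**Figure D1:**
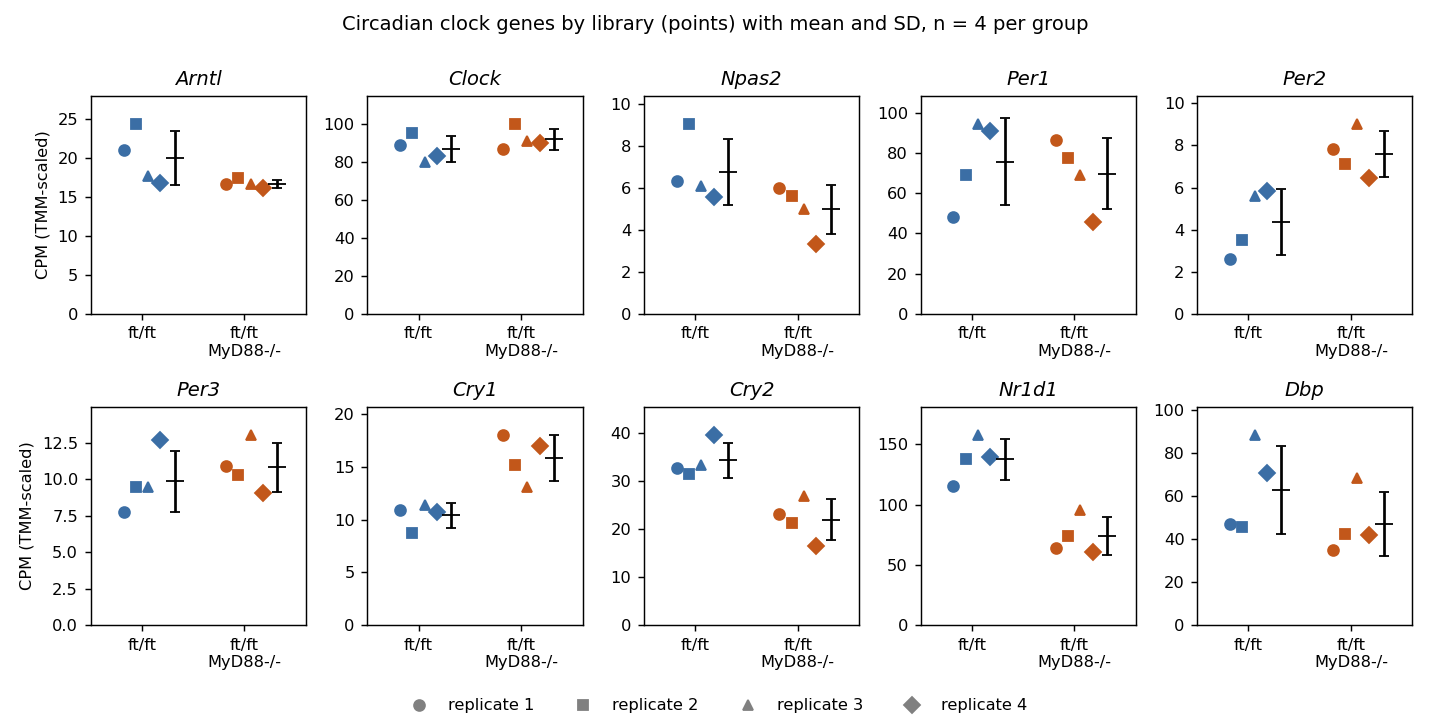
CPM (TMM-scaled, axes from 0) of the 10 clock genes in each of the 4 ft/ft (blue) and 4 ft/ftMyD88-/- (orange) libraries, with the mean and SD to the right of the points. The groups do not overlap for Per2, Cry1, Cry2 and Nr1d1 and overlap for the other 6 genes.

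To set the genes beside each other, CPM was divided by the total exon length of each gene in GENCODE M21. On this scale of CPM per kilobase *Nr1d1* had the highest level in ft/ft, at 44.7 ± 5.59 (SD, n = 4), above every library of *Dbp* at 21.0 ± 6.83. *Dbp* overlapped with *Per1* at 13.4 ± 3.83, and *Clock* at 6.34 ± 0.501 overlapped with *Cry2* at 5.42 ± 0.564. *Cry1* (3.12 ± 0.356) overlapped with *Arntl* (2.66 ± 0.456), and the lowest levels were those of *Npas2* (1.41 ± 0.327), *Per3* (1.02 ± 0.216) and *Per2* (0.748 ± 0.269), each overlapping with the next. In ft/ftMyD88-/- the order differed in 2 places. *Cry1* (4.74 ± 0.651) stood above *Cry2* (3.47 ± 0.683), although their libraries overlapped, and *Per2* (1.30 ± 0.186) stood above *Per3* (1.12 ± 0.173) and *Npas2* (1.04 ± 0.244), again with overlap. *Nr1d1* (23.9 ± 5.10) no longer stood clear of *Dbp* (15.7 ± 4.94) there.

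Of the 10 genes, 2 were called higher and 2 lower in ft/ftMyD88-/-, which is 40% of them against 23.3% of all genes tested. By direction, 10.9% of all genes were called higher and 12.3% lower. The groups did not overlap for the same 4 genes, a pattern held by 26.7% of all genes (12.5% higher and 14.2% lower). Under the alternatives the share of all genes called was 29.9% with DESeq2, 23.2% with RLE factors, 29.2% with library size alone, 29.6% with filterByExpr, 22.1% with no filter, 22.9% with limma voom, 19.7% with the replicate block and 11.2% at an adjusted p under 0.01. Whether the 10 genes differ from other genes in this share was not tested. The median log2 fold change was -0.19 over the 10 genes and 0.01 over all genes, and the median absolute value was 0.43 and 0.31. With library size alone as the scaling, the median over all genes rose by 0.177 to 0.19, and that over the 10 genes became -0.01.

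None of the 3 activators passed the test. *Arntl* (chromosome 7, 113178471 to 113314126, GRCm38.p6), the activator on which the loop depends, was at 21.0, 24.4, 17.7 and 16.8 CPM in ft/ft and at 16.7, 17.4, 16.7 and 16.2 in ft/ftMyD88-/-. All ft/ftMyD88-/- libraries lay within 1.08-fold of each other, whereas ft/ft replicates 1 and 2 stood above replicates 3 and 4. The log2 fold change was -0.26 (95% interval -0.53 to 0.01, edgeR adjusted p = 0.146).

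*Clock* (chromosome 5, 76209868 to 76305603), the histone acetyltransferase partner of ARNTL, was at 89.0, 95.6, 79.9 and 83.4 CPM in ft/ft and at 86.8, 100.2, 91.3 and 90.2 in ft/ftMyD88-/-. The groups overlapped, with a log2 fold change of 0.08 (95% interval -0.10 to 0.27, edgeR adjusted p = 0.529). It was called higher with library size alone (log2 fold change 0.26, edgeR adjusted p = 0.0392). *Npas2* (chromosome 1, 39193702 to 39363240), the paralog that can replace CLOCK, was at 6.34, 9.06, 6.08 and 5.56 CPM in ft/ft and at 6.00, 5.62, 5.0 and 3.35 in ft/ftMyD88-/-. Its highest library was ft/ft replicate 2, as for *Arntl*, and the groups overlapped (log2 fold change -0.43, 95% interval -0.88 to 0.02, edgeR adjusted p = 0.149).

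The cryptochromes, the strongest repressors of the loop, moved in opposite directions. *Cry1* (chromosome 10, 85131700 to 85185054) was at 10.9, 8.69, 11.4 and 10.7 CPM in ft/ft and at 18.0, 15.2, 13.1 and 17.0 in ft/ftMyD88-/-. Every ft/ftMyD88-/- library lay above every ft/ft library, with the smallest gap at ft/ftMyD88-/- replicate 3 (log2 fold change 0.60, SE 0.133, edgeR adjusted p = 0.00692). The 2 ft/ftMyD88-/- libraries with the most anagen hair follicle transcript, replicates 1 and 4, were also the highest for *Cry1*. Replicate 2 had a hair follicle sum of 1579 CPM, within the ft/ft range of 1180 to 1906, and *Cry1* above every ft/ft library. In ft/ft the hair follicle markers were highest in replicate 1 and *Cry1* in replicate 3. A part of hair follicle content in *Cry1* was not tested. Skeletal muscle transcripts were fewer in ft/ftMyD88-/- as well, where *Cry2*, *Nr1d1* and *Hlf* were lower. Within ft/ftMyD88-/- the muscle markers and these genes were all highest in replicate 3. The markers were lowest in replicate 1 (3838 CPM), whereas these genes were lowest in replicate 4 (markers at 5250 CPM). A part of muscle content in these values was not tested. *Cry2* (chromosome 2, 92403646 to 92434085) was at 32.7, 31.5, 33.3 and 39.5 CPM in ft/ft and at 23.0, 21.2, 26.9 and 16.5 in ft/ftMyD88-/-. Here every ft/ftMyD88-/- library lay below every ft/ft library (log2 fold change -0.64, SE 0.138, edgeR adjusted p = 0.00606). Within a library the log2 ratio of *Cry1* to *Cry2* was -1.58, -1.86, -1.55 and -1.88 in ft/ft and -0.36, -0.48, -1.04 and 0.04 in ft/ftMyD88-/-. The mean ratio was thus 1.26 higher on the log2 scale in ft/ftMyD88-/-, a description of genes chosen with these results known. Both calls held in all 16 alternatives, with log2 fold changes of 0.52 to 0.78 for *Cry1* and -0.74 to -0.46 for *Cry2*.

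**Figure D2:**
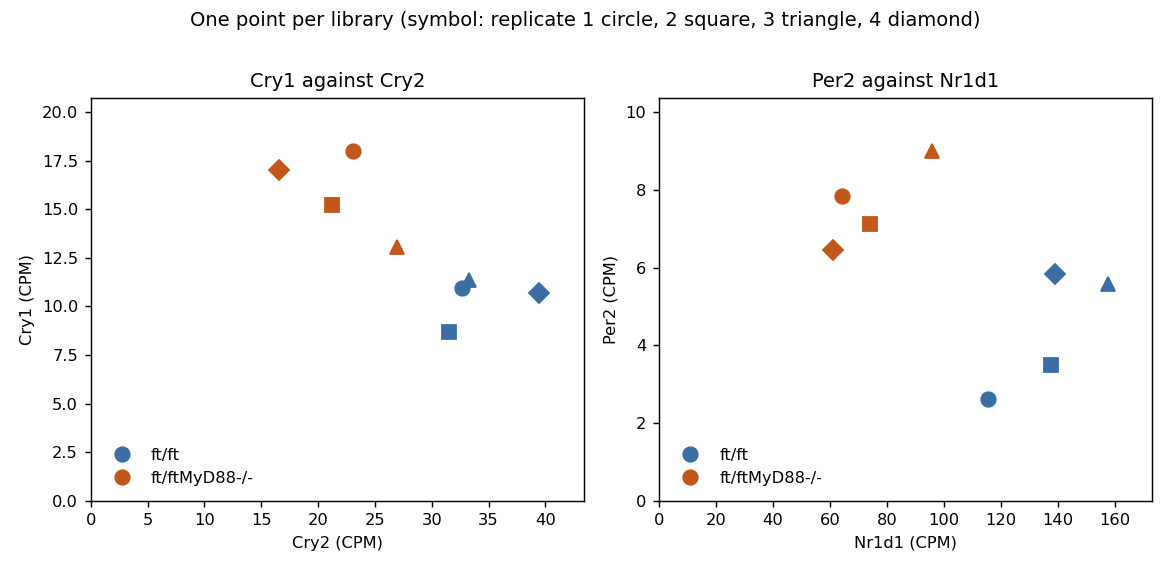
Cry1 against Cry2 (left) and Per2 against Nr1d1 (right), in CPM with axes from 0, with a point for each of the 4 ft/ft (blue) and 4 ft/ftMyD88-/- (orange) libraries. The ft/ftMyD88-/- points lie up and to the left of all ft/ft points in both panels, which follows from the lack of overlap of each gene alone.

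The *Per* genes, whose proteins carry CRY into the nucleus, did not move as a group. *Per2* (chromosome 1, 91415977 to 91459351) was at 2.61, 3.49, 5.58 and 5.83 CPM in ft/ft, from 61, 96, 100 and 152 counts, and at 7.84, 7.13, 9.02 and 6.46 in ft/ftMyD88-/-. Its ft/ft libraries spread 2.23-fold, and the highest of them came close to the lowest ft/ftMyD88-/- library (log2 fold change 0.81, SE 0.234, edgeR adjusted p = 0.0271). The call was lost in 4 of the 8 fits that left out a library, those without ft/ft replicate 1 (edgeR adjusted p = 0.0513), ft/ft replicate 2 (0.0713), ft/ftMyD88-/- replicate 1 (0.0517) or ft/ftMyD88-/- replicate 3 (0.0628).

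*Per1* (chromosome 11, 69095108 to 69109965), which responds to glucocorticoids and cAMP as well as to the clock, was at 48.1, 68.8, 94.4 and 91.1 CPM in ft/ft and at 86.6, 77.7, 69.0 and 45.6 in ft/ftMyD88-/-. Both groups spanned nearly the same range, 1.96-fold and 1.90-fold (log2 fold change -0.11, 95% interval -0.70 to 0.47, edgeR adjusted p = 0.785). *Per3* (chromosome 4, 150997018 to 151044707), which is dispensable for the loop itself, was at 7.72, 9.46, 9.48 and 12.7 CPM in ft/ft and at 10.9, 10.3, 13.0 and 9.02 in ft/ftMyD88-/-, with a log2 fold change of 0.14 (95% interval -0.22 to 0.49, edgeR adjusted p = 0.591). Relative to *Per1* in the same library, *Per2* was higher in each ft/ftMyD88-/- library than in any ft/ft library. The log2 ratio of *Per2* to *Per1* was -4.20, -4.30, -4.08 and -3.97 in ft/ft and -3.47, -3.45, -2.94 and -2.82 in ft/ftMyD88-/-, a mean difference of 0.97.

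*Nr1d1* (chromosome 11, 98767932 to 98775377), the heme-binding repressor of *Arntl*, differed most among the 10 genes by log2 fold change. It was at 115, 138, 157 and 139 CPM in ft/ft and at 64.1, 73.9, 95.7 and 60.9 in ft/ftMyD88-/-. All ft/ftMyD88-/- libraries lay below all ft/ft libraries (log2 fold change -0.90, SE 0.143, edgeR adjusted p = 0.00125), and the call held in all 16 alternatives, from -1.04 to -0.72. *Nr1d1* shares 1075 bases with the 3′ end of *Thra*, the thyroid hormone receptor alpha gene that is transcribed the other way, and the strand setting of the counting is not given in the sources used here. *Thra* was lower as well, at 101 ± 3.95 against 65.3 ± 7.98 CPM (SD, n = 4 each, log2 fold change -0.63, SE 0.0948, edgeR adjusted p = 8.23e-04). The log2 ratio of *Nr1d1* to *Thra* was 0.43 ± 0.165 in ft/ft and 0.16 ± 0.211 in ft/ftMyD88-/-, a difference of -0.28 with overlapping groups. Within ft/ftMyD88-/- skeletal muscle markers and *Nr1d1* were both highest in replicate 3. The markers were lowest in replicate 1 (3838 CPM) and *Nr1d1* in replicate 4, where the markers summed to 5250 CPM. In ft/ft the markers were highest in replicate 4 and *Nr1d1* in replicate 3. A part of muscle content in the *Nr1d1* values was not tested. Within a library the log2 ratio of *Per2* to *Nr1d1* was -5.46 to -4.58 in ft/ft and -3.41 to -3.03 in ft/ftMyD88-/-, a mean difference of 1.78. Each gene alone already separated the groups, in opposite directions, so the separation of this ratio was fixed in advance and adds no support.

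*Dbp* (chromosome 7, 45705100 to 45710203), the D-box activator and among the genes of highest daily amplitude in most tissues, was at 47.0, 45.6, 88.2 and 70.9 CPM in ft/ft and at 34.8, 42.5, 68.5 and 41.8 in ft/ftMyD88-/-. The libraries spread 1.93-fold in ft/ft and 1.97-fold in ft/ftMyD88-/-, and the groups overlapped. The log2 fold change was -0.42 (95% interval -1.07 to 0.23, edgeR adjusted p = 0.329), so a difference of the size seen for *Nr1d1* lay within the interval. Its last 741 bases overlap the annotated span of *Sphk2*.

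**Figure D3:**
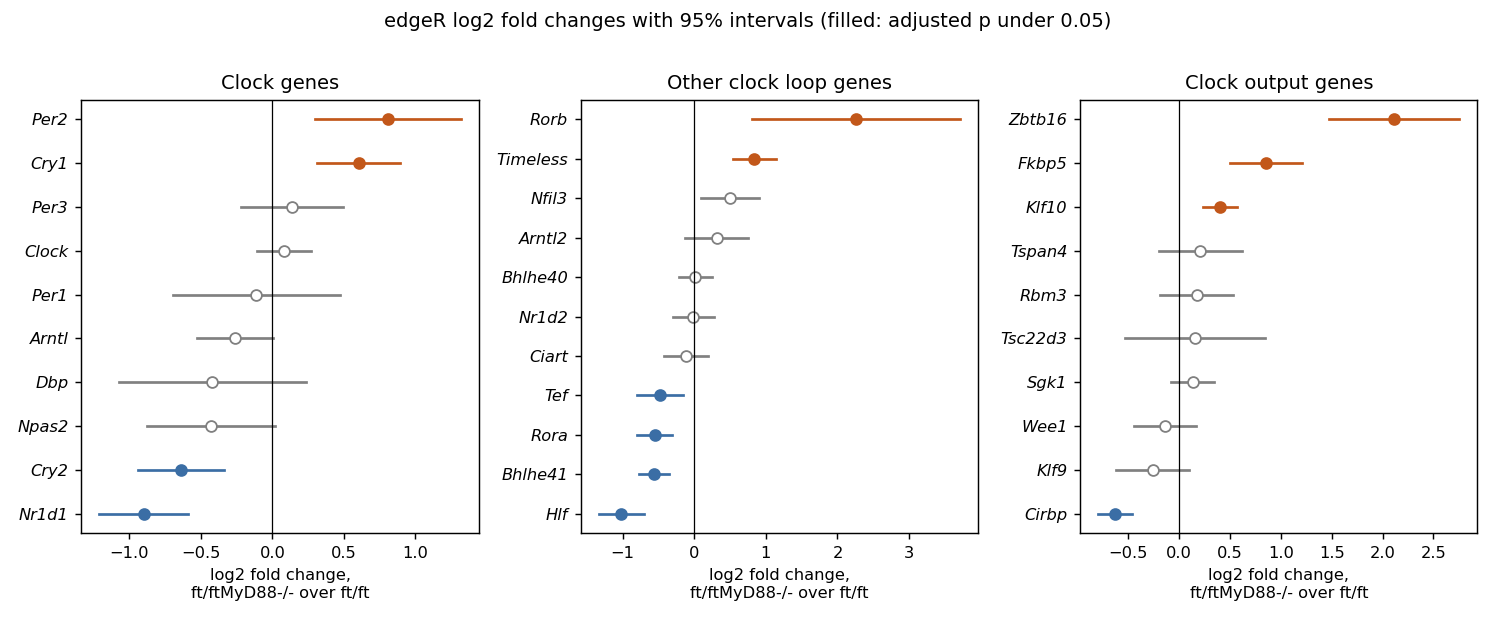
edgeR log2 fold changes (ft/ftMyD88-/- over ft/ft) with 95% intervals for the 10 clock genes, 11 other clock loop genes and 10 clock output genes, where filled points passed an adjusted p of 0.05 (orange higher, blue lower) and open points did not. The panels have different horizontal scales, and among the clock genes Nr1d1 and Per2 lie at the ends.

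In the ft/ft libraries several clock genes set replicates 1 and 2 apart from 3 and 4, some in opposite directions, and the reason was not tested. Replicates 1 and 2 had the 2 lowest values of *Dbp* (47.0 and 45.6 CPM) and *Per1* (48.1 and 68.8), and also of *Per2*, *Per3*, *Cry2* and *Nr1d1*. Gaps were small for *Per3* (9.46 in replicate 2, 9.48 in 3), *Cry2* (32.7 in 1, 33.3 in 3) and *Nr1d1* (138 in 2, 139 in 4). *Cry1* did not split in this way. The 2 highest values of *Arntl* (21.0 and 24.4 CPM), *Clock* (89.0 and 95.6) and *Npas2* (6.34 and 9.06) were in replicates 1 and 2, although *Npas2* in replicate 3 came close at 6.08. The log2 ratio of *Arntl* to *Dbp* was -1.16 and -0.90 in these replicates against -2.31 and -2.07 in replicates 3 and 4. Of the 10 output genes described below, 4 (*Tsc22d3*, *Klf9*, *Wee1* and *Tspan4*) were lower in both of replicates 1 and 2 than in either of the others, and 6 (*Fkbp5*, *Zbtb16*, *Sgk1*, *Klf10*, *Cirbp* and *Rbm3*) did not split in this way. The share of all genes that split these replicates was not computed, so the clock and output genes have no background to be set against. *Tsc22d3*, a glucocorticoid-induced leucine zipper gene, was at 60.4, 52.3, 106 and 97.7 CPM in ft/ft replicates 1 to 4, and *Klf9*, a glucocorticoid-responsive repressor, was at 71.8 and 67.6 CPM in replicates 1 and 2 and above 95 in the others.

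In ft/ftMyD88-/- skin that opposition was less regular. *Dbp* was highest in replicate 3 (68.5 CPM against 34.8 to 42.5), as were *Nr1d1*, *Cry2*, *Per2* and *Per3*, while *Arntl* ranged only from 16.2 to 17.4. Replicate 4 had the lowest *Arntl*, *Npas2*, *Per1*, *Per2*, *Per3*, *Cry2* and *Nr1d1* of the group. It also had the fewest counts of all libraries (15802957) and the highest neutrophil marker sum (958 CPM), and a part of either was not tested. The log2 ratio of *Arntl* to *Dbp* was -1.06, -1.29, -2.04 and -1.37, inside the range of ft/ft, and its group means of -1.61 and -1.44 differed by 0.171, less than the SD of either group (0.686 and 0.419). With 4 libraries a group these spreads are given as values, and no correlation was computed.

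**Figure D4:**
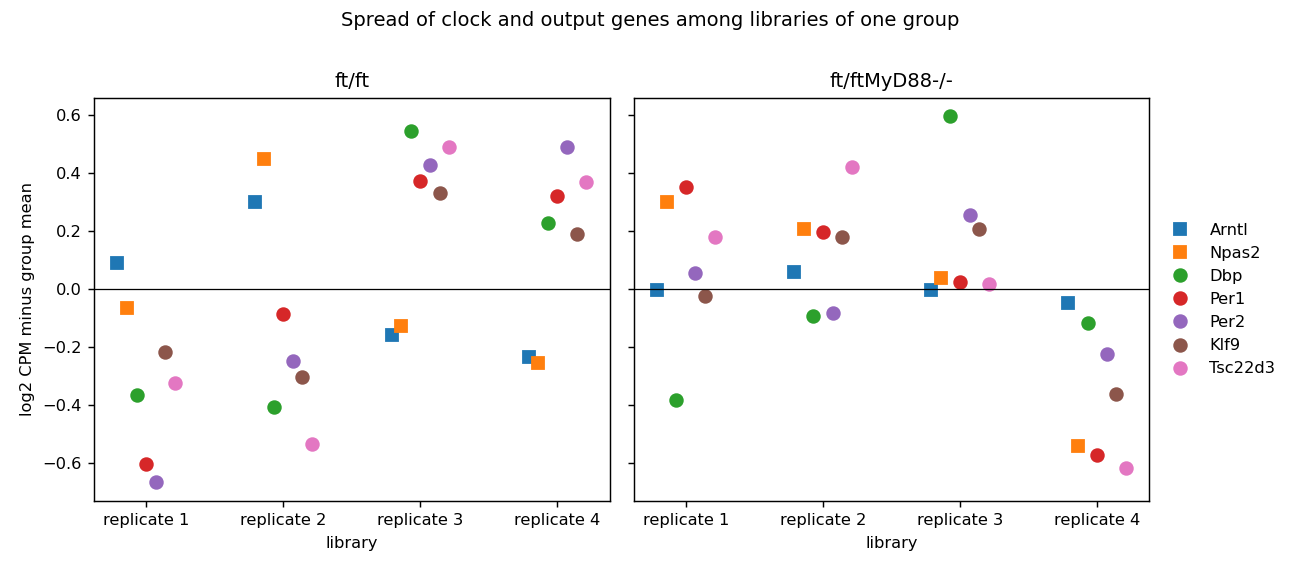
log2 CPM minus the group mean for Arntl and Npas2 (squares) and Dbp, Per1, Per2, Klf9 and Tsc22d3 (circles) in replicates 1 to 4 of ft/ft (left) and ft/ftMyD88-/- (right). In ft/ft the circles lie below the group mean in replicates 1 and 2 and above it in replicates 3 and 4, while Arntl lies on the other side in each, and in ft/ftMyD88-/- no such split is seen.

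Of 11 other genes of the loop, 2 were called higher and 4 lower, 54.5% against the 23.3% of all genes. Among the receptors that compete with NR1D1 at *Arntl*, *Rora* was at 244, 223, 188 and 224 CPM in ft/ft and 154, 155, 166 and 124 in ft/ftMyD88-/-, without overlap (log2 fold change -0.55, SE 0.11, edgeR adjusted p = 0.0041). By contrast *Rorb* counts were only 3, 0, 2 and 8 in the ft/ft and 29, 17, 14 and 5 in the ft/ftMyD88-/- libraries, and the gene was called higher with overlapping libraries (log2 fold change 2.26, edgeR adjusted p = 0.0292). The *Rorb* call was lost without ft/ft replicate 1 (edgeR adjusted p = 0.0692), ft/ft replicate 3 (0.0698) or ft/ftMyD88-/- replicate 1 (0.0824), and the gene was not tested under filterByExpr. *Nr1d2*, the paralog of *Nr1d1* with a like function, was at 95.7, 74.9, 108 and 96.5 CPM in ft/ft and at 79.4, 85.5, 115 and 90.6 in ft/ftMyD88-/-, with a log2 fold change of -0.02 (95% interval -0.30 to 0.27, edgeR adjusted p = 0.946). The 2 paralogs therefore separated: the log2 ratio of *Nr1d1* to *Nr1d2* was 0.271 to 0.878 in ft/ft and -0.57 to -0.21 in ft/ftMyD88-/-.

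The PAR-bZIP factors that share the D-box with DBP were lower. *Hlf* was at 54.3, 49.6, 55.6 and 54.5 CPM in ft/ft and at 23.3, 26.1, 35.4 and 20.4 in ft/ftMyD88-/-, without overlap (log2 fold change -1.02, SE 0.143, edgeR adjusted p = 6.12e-04). *Tef* was at 122, 114, 153 and 153 CPM in ft/ft and at 84.1, 91.0, 128 and 84.8 in ft/ftMyD88-/-, with overlap at replicate 3 (log2 fold change -0.48, SE 0.148, edgeR adjusted p = 0.0353). The *Tef* call was lost in 5 of the 8 fits that left out a library, without ft/ft replicate 3 or 4 or ft/ftMyD88-/- replicate 1, 2 or 4 (edgeR adjusted p up to 0.106), and with library size alone (0.179). *Nfil3*, the repressor that occupies the same D-box sequences, was at 21.0, 24.1, 21.4 and 25.8 CPM in ft/ft and at 45.0, 32.9, 21.6 and 31.7 in ft/ftMyD88-/-. It did not pass, and the value depended on replicate 3 of ft/ftMyD88-/-, with an edgeR adjusted p of 0.0695 over all libraries and 0.00585 without that one (log2 fold change 0.51 and 0.68). It passed with DESeq2 (adjusted p = 0.0334) and with library size alone (edgeR adjusted p = 0.0174). Skeletal muscle markers were highest in that same ft/ftMyD88-/- library (7335 CPM against 3838 to 5716), as were adipocyte markers (482 against 177 to 213). *Hlf* and *Tef* were also highest there within the group, and a part of either tissue was not tested.

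Other repressors of the loop were divided. *Bhlhe41* (DEC2) was lower, at 43.7 ± 3.76 against 29.6 ± 2.98 CPM (SD, n = 4 each, log2 fold change -0.56, SE 0.0988, edgeR adjusted p = 0.00205), whereas its paralog *Bhlhe40* (DEC1) was at 75.7 ± 11.1 and 76.3 ± 4.23 CPM (log2 fold change 0.01, 95% interval -0.22 to 0.24, edgeR adjusted p = 0.946). *Ciart* (CHRONO), whose promoter window held the E-box letters 3 times, was at 9.51 ± 0.551 and 8.73 ± 1.56 CPM (log2 fold change -0.12, 95% interval -0.43 to 0.19, edgeR adjusted p = 0.587). *Timeless*, which acts at replication forks as well as in the clock, was higher, at 8.74 ± 1.45 against 15.7 ± 1.46 CPM (log2 fold change 0.84, SE 0.139, edgeR adjusted p = 0.00143), beside the 5 proliferation markers that rose in the same libraries. *Arntl2* was at 2.70 ± 0.509 and 3.38 ± 0.683 CPM (edgeR adjusted p = 0.293).

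**Figure D5:**
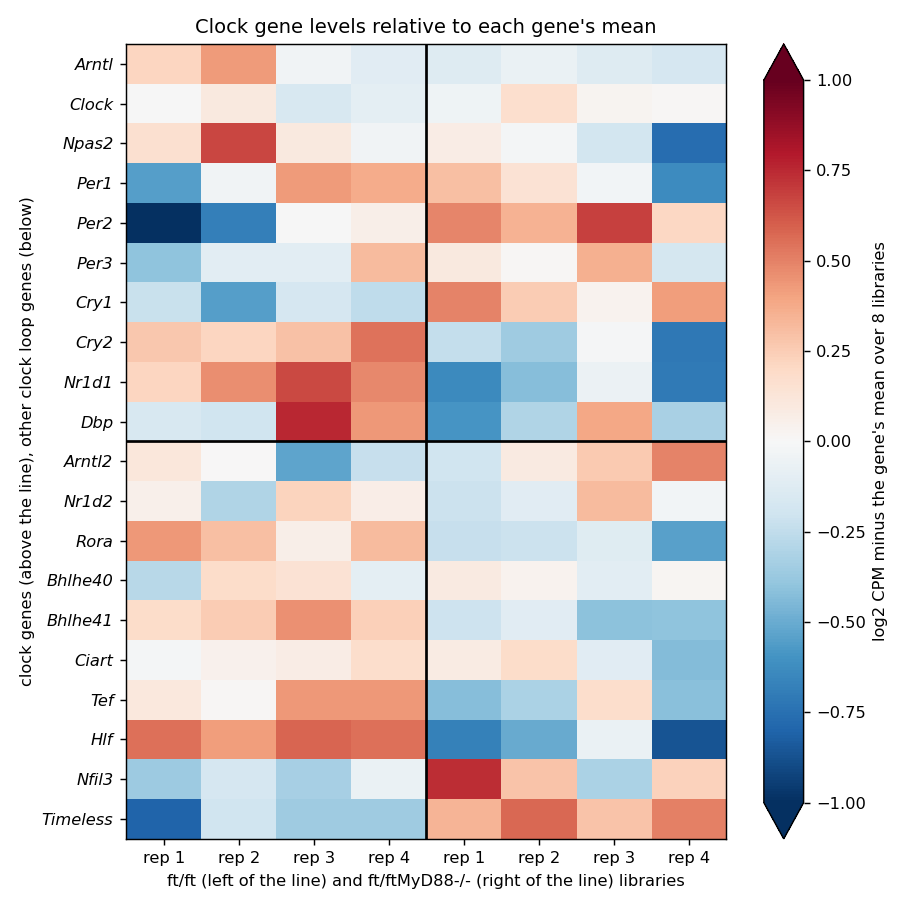
log2 CPM minus each gene's mean over the 8 libraries (red above, blue below, colours end at 1) for the 10 clock genes (upper block) and 10 other loop genes (lower block, Rorb left out for its 0 count). Cry2, Nr1d1, Rora, Hlf and Bhlhe41 change colour between the groups one way, and Cry1 and Timeless the other, while Per2 is darkest blue in ft/ft replicate 1.

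Enzymes that modify or degrade clock proteins were near the background share, with 3 of 12 called, all lower, 25% against 23.3% (*Nampt* was not analysed here). *Prkaa2*, a catalytic subunit of AMPK that marks cryptochromes for degradation and is abundant in muscle, was at 40.5 ± 4.08 in ft/ft and 26.5 ± 3.61 CPM in ft/ftMyD88-/- (SD, n = 4 each, log2 fold change -0.61, SE 0.114, edgeR adjusted p = 0.00288). *Btrc*, the F-box protein that targets PER proteins, fell from 15.9 ± 0.973 to 11.1 ± 1.33 (log2 fold change -0.51, SE 0.116, edgeR adjusted p = 0.00818), and *Csnk2a1* from 113 ± 4.62 to 95.3 ± 4.92 (log2 fold change -0.25, SE 0.0774, edgeR adjusted p = 0.0358). The *Csnk2a1* call was lost in 6 of the 8 fits that left out a library, all but those without ft/ft replicate 2 or ft/ftMyD88-/- replicate 3 (edgeR adjusted p up to 0.0901), and with library size alone (0.527), as was that of *Btrc* (0.0551). The PER kinases *Csnk1d* (log2 fold change -0.04, 95% interval -0.22 to 0.14, edgeR adjusted p = 0.769) and *Csnk1e* (0.26, 0.01 to 0.51, edgeR adjusted p = 0.124) did not pass. With library size alone *Csnk1e* was called higher (edgeR adjusted p = 0.0137), and *Csnk1a1*, another PER kinase, was called higher with library size alone (0.00681) and without ft/ft replicate 1 (0.0490), against 0.126 over all libraries. The other 6 modifiers, *Gsk3b*, *Fbxl21*, *Fbxw11*, *Usp2*, *Prkaa1* and *Sirt1*, had log2 fold changes from -0.25 to 0.08 and did not pass, with the lowest edgeR adjusted p at *Prkaa1* (0.0878).

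Of 10 genes known as clock or systemic outputs, 3 were called higher and 1 lower, 40% against the 23.3% of all genes. *Zbtb16* (PLZF), a glucocorticoid-induced factor also made by innate-like T cells, was at 7.37, 10.3, 9.98 and 11.8 CPM in ft/ft and at 41.1, 51.3, 55.9 and 22.2 in ft/ftMyD88-/-, a 4.32-fold difference (log2 fold change 2.11, SE 0.282, edgeR adjusted p = 0.00135). *Fkbp5*, a co-chaperone induced by the glucocorticoid receptor, was at 45.4, 50.4, 44.6 and 51.8 CPM in ft/ft and at 87.2, 113, 87.4 and 59.1 in ft/ftMyD88-/- (log2 fold change 0.85, SE 0.161, edgeR adjusted p = 0.00384). *Klf10* rose by less (log2 fold change 0.41, SE 0.0766, edgeR adjusted p = 0.00308). In replicate 4 of ft/ftMyD88-/- *Zbtb16* and *Fkbp5* were lowest of the group, as *Per1* and *Tsc22d3* were. Other glucocorticoid-responsive genes did not pass, with *Tsc22d3* at 79.2 ± 26.8 and 88.1 ± 24.6 CPM (SD, n = 4 each, log2 fold change 0.16, 95% interval -0.53 to 0.84, edgeR adjusted p = 0.746), *Klf9* at 84.8 ± 18.0 and 70.7 ± 12.1 (edgeR adjusted p = 0.273) and *Sgk1* at 118 ± 10.6 and 129 ± 12.7 (edgeR adjusted p = 0.357).

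The cold-inducible RNA-binding proteins, which follow the daily rhythm of body temperature, parted. *Cirbp* was at 66.1, 58.5, 60.1 and 60.7 CPM in ft/ft and at 39.1, 39.3, 39.4 and 40.7 in ft/ftMyD88-/-, with every ft/ftMyD88-/- library below every ft/ft library (log2 fold change -0.63, SE 0.0759, edgeR adjusted p = 2.27e-04). *Rbm3* was at 343 ± 56.3 and 387 ± 92.5 CPM (log2 fold change 0.17, 95% interval -0.19 to 0.53, edgeR adjusted p = 0.492). *Wee1*, a cell cycle kinase driven by the clock through E-boxes, was at 32.3 ± 6.72 and 29.2 ± 3.18 CPM (edgeR adjusted p = 0.499), and *Tspan4* at 23.2 ± 6.01 and 26.7 ± 4.91 (edgeR adjusted p = 0.454).

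Among 11935 other genes with a mean of at least 5 CPM, those closest to *Arntl* over the 8 libraries were *Mospd3*, *Diaph1* and *Chd1l*, with a mean absolute difference of 0.0646, 0.0693 and 0.0705 between profiles of log2 CPM centred on each gene's mean. Those closest to *Dbp* were *Pcolce2*, *Clec3b* and *Tmem8b*, at 0.107, 0.111 and 0.117. None of the 6 is a clock gene of the lists above.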

How the data were processed

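Periocular skin RNA-seq of 4 ft/ft and 4 ft/ftMyD88-/- libraries was used. The authors filtered the reads, aligned them with HISAT and tophat2 (GRCm38.p6), and deposited raw, unnormalized gene counts, 1 column a library. Their methods name HTSeq with default parameters and polyA-selected TruSeq libraries, whereas GEO labels on the 8 samples list a protocol for fixed tissue, total RNA and Cell Ranger. Versions, annotation release and strand setting are not given in the sources used here.

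A minimum of 10 counts over the 8 libraries left 20454 of 21247 genes. These were compared by edgeR 4.0.16 quasi-likelihood tests in R 4.3.3 (robust fit, TMM factors of 0.922 to 1.09, no covariate, two-sided), adjusted by Benjamini-Hochberg over all genes, with a threshold of 0.05. SE is the log2 fold change over the root of F. A count of 0 allows up to 3 counts, or 0.102 to 0.183 CPM by library, which covers counting error only. The scripts were tested on simulated data. No pair of replicates agreed within counting noise (lowest chi-square over its degrees of freedom, 16.3). Exon lengths are from GENCODE M21, and coordinates and promoters from RefSeq GRCm38.p6. Alternatives were DESeq2 1.42.0, RLE factors, library size alone, filterByExpr, no filter, limma 3.58.1 voom, a replicate block, leaving out each library, and an adjusted p under 0.01. Genes named are the 10 members, 3 fixed lists (other loop genes, modifiers, outputs), *Thra*, label checks, cell type markers and the 3 genes closest to *Arntl* and *Dbp*. Some further genes first chosen for these lists are not reported here and enter no list or count. *Sphk2* was named for its overlap after values were seen. Members, lists and ratios were chosen with earlier results of these data known.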

Additional observations from a re-analysis of the deposited data

Results flagged for a closer look

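Of 86 sets of 4 libraries (each tested clock, modifier or output gene in each group), 3 held a library far from the other 3, where chance flags about 1 in 20. *Tef* was at 128 CPM in ft/ftMyD88-/- replicate 3 against 84.1 to 91.0 in the others. *Fbxw11*, an F-box protein that targets PER, was at 95.4 CPM in ft/ft replicate 1 against 89.0 to 89.5. *Cirbp* was at 40.7 CPM in ft/ftMyD88-/- replicate 4 against 39.1 to 39.4. None of the 10 clock genes held such a library.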

How the results depend on the processing

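Over 16 alternatives the calls of *Cry1*, *Cry2* and *Nr1d1* held, and the other clock genes kept their side of the threshold except as follows. Left out one library at a time, *Per2* ranged from 0.62 to 0.98 (log2) and lost its call in 4 of 8 fits, and it lost it at an adjusted p under 0.01 (0.81), so that 1 to 2 clock genes were called higher without a library and 1 at 0.01. With library size alone, which raised the median of all genes by 0.177, *Clock* was called (0.26) and *Per1* turned to 0.062; *Per1* ranged from -0.28 to 0.049 without a library. Library size alone gave 4638 genes higher and 1326 lower (77.8% of calls higher against 47%), and 0.01 gave 951 and 1350.

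The replicate numbers do not pair the libraries (correlations of -0.15, 0.03, 0.01 and -0.02, and 1 of 8 libraries correlated best with its own number). A replicate block changed the calls of all genes from 4764 to 4039, called *Dbp* lower (-0.41, edgeR adjusted p = 0.0308), for 3 members lower, and lost *Csnk2a1*, for 2 modifiers lower.

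Among other loop genes, 1 was called higher with filterByExpr and 1 at 0.01 (1 to 3 without a library), and 3 were called lower with library size alone and 3 at 0.01, against 4. Of the modifiers, library size alone called 2 higher and 1 lower, and 0 to 1 were higher without a library. Library size alone turned *Nr1d2* (0.16), *Ciart* (0.059), *Csnk1d* (0.14), *Fbxw11* (0.16), *Sirt1* (0.13) and *Wee1* (0.034). Leaving out a library turned *Nr1d2* (-0.12 to 0.058), *Bhlhe40* (-0.068 to 0.080), *Fbxl21* (-0.52 to 0.034), *Fbxw11* (-0.035 to 0.011) and *Sirt1* (-0.11 to 0.013). None of the reversed values was called in the main comparison, and the cause was not tested. For the 33 other genes, whose single values under the alternatives were added after seeing the data, 479 of 527 values kept direction and side of the threshold, 21 lost the call, 7 gained it and 20 reversed. Depth limits *Rorb* and *Fbxl21*, with few counts a library.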
